A study of Mus musculus with 12 samples.

Results

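The interferon-stimulated gene families described here comprise 52 of the 11669 genes measured, 10185 of them protein-coding. Members are the protein-coding genes whose symbol begins with Ifi, Oas, Isg, Gbp or Irgm, is Irf or Stat followed by a digit, or is one of 8 single names, of which 5 were present (Bst2, Usp18, Cmpk2, Zbp1 and Ddx58). Ifi30 and Mx2, which the table lists under other gene classes, were not counted. RNA of mouse cells named TAMC was sequenced 24 h after exposure to NP-D@MP, NP-D@M, NP@M or PBS, with 3 libraries in each of the 4 groups. The series concerns a nanodrug modified with cancer cell membrane and directed at cyclin-dependent kinases, and PBS is a saline buffer. No meaning of TAMC, NP, D, M or P is given in the labels, so each group carries its label, and "with D" means the NP-D@MP and NP-D@M groups. TAMC stands under the cell line tag, the tissue is given as marrow and the cell type as immune cell, whereas the extraction text of the same records speaks of retinas. Whether replicate libraries were grown or isolated independently is not given, so the spread behind each p-value is that of these libraries alone and may be technical.

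Interferons bind receptors at the cell surface and activate Janus kinases, which phosphorylate STAT proteins. STAT complexes then bind the interferon-stimulated response element (ISRE), where IRF9 takes part, or the gamma-activated site (GAS), and both elements switch on genes whose products detect viral nucleic acid, block virus entry, degrade viral RNA or attack the vacuoles of intracellular microbes. Interferon regulatory factors (IRFs) also carry signals from nucleic acid sensors to the interferon genes themselves, and in macrophages and dendritic cells several of them shape cell identity.

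Levels are given in FPKM, fragments per kilobase of gene scaled to library size, as deposited. Whole reads could be recovered from them, 14.4 M to 17.3 M per library, and they show that the deposited scaling differs between the groups. The library size implied by the values was 0.468 to 0.553 times the recovered reads in the 6 libraries with D, against 2.19 to 2.36 times in the 6 libraries without D. Scaling to the recovered read totals lowered the log2 level of every gene by 2.17 in NP-D@M relative to NP@M and by 2.24 in NP-D@MP relative to PBS, before the pseudocount. Fold changes are therefore given under both the deposited scaling and read totals, and a direction is stated for a gene only with a note where read totals turned it. Where a pair of log2 fold changes follows with no comparison named, the first is for NP-D@M against NP@M and the second for NP-D@MP against PBS. NP@M replicate 2 and PBS replicate 3 stood apart from their group mates. Genes at 0 made up 9.11% and 9.31% of the table in them and 2.65% to 2.96% in their mates, and their correlation with group mates across genes was 0.877 to 0.932, against 0.981 to 0.995 for all other pairs within groups. Of 11 monocyte and macrophage markers all had a row, and Lyz2, Cd68 and Adgre1 were among the most abundant. Of 8 retina markers 1 had a row, Sag, which reached at most 0.143 FPKM in any library.

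The promoters of 5 members, shown for the ISRE and GAS letters that the family is known for, stand here beside that of Irf7, one of the members with the largest change, which held neither. Sequences are the 150 bases before the transcription start in RefSeq on GRCm38.p6, written on the gene's strand, and capitals mark every match on either strand to the ISRE core GAAANNGAAA or the GAS core TTCNNNGAA.
Irf7, chr7:141266425-141266574, minus strand: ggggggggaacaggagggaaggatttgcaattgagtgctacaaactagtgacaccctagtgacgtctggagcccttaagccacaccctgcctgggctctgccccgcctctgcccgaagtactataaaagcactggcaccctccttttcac
Bst2, chr8:71537473-71537622, minus strand: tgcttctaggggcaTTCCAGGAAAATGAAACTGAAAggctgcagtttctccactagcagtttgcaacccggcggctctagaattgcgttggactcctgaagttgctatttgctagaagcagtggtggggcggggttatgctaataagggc
Oas1a, chr5:120907526-120907675, minus strand: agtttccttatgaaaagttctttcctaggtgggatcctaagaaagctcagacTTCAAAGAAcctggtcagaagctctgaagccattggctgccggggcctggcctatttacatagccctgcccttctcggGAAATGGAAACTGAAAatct
Gbp7, chr3:142530186-142530335, plus strand: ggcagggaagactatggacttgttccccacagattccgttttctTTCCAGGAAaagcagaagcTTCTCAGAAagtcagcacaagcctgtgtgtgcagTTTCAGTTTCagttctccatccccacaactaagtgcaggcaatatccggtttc
Irgm2, chr11:58214827-58214976, plus strand: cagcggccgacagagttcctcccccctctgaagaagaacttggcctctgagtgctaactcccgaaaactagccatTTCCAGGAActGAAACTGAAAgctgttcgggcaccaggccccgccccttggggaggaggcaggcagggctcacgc
Irf1, chr11:53769864-53770013, plus strand: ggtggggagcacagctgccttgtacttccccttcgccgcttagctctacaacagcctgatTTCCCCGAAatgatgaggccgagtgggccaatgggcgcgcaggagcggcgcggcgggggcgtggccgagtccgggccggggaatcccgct
In Bst2, 2 overlapping ISRE cores ran from base 130 to base 115 before the start and overlapped a GAS core at bases 136 to 128. Oas1a likewise held 2 overlapping ISRE cores, at bases 20 to 5, and a GAS core at bases 98 to 90. Gbp7 held an ISRE core on the opposite strand at bases 53 to 44 and GAS cores at bases 106 to 98 and 87 to 79. Irgm2 held an ISRE core at bases 64 to 55 next to a GAS core at bases 75 to 67, although this RefSeq start lies 15359 bases from the gene's start in the table. Irf1 held a GAS core at bases 90 to 82, and no core was found within 250 bases of the Irf7 start.

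Across the 250 bases before the start, on both strands, 19 of the 46 members with a RefSeq window (41.3%) held the ISRE core, against 936 of 27025 genes (3.46%). The GAS core stood in 12 of the 46 (26.1%), against 2197 of 27025 genes (8.13%). Of the interferon-inducible GTPases with a window, 7 of 8 genes held the ISRE core in at least 1 of their windows, and of the IRFs 1 of 8 did. Of the members called higher in NP-D@M than in NP@M, 6 of 13 held the ISRE core, and of those called lower 7 of 24 did. These matches are descriptions of sequence and show no binding.

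Under the deposited scaling, members went both ways in cells treated with D, within most of the role groups as well as between them. Under read totals, calls in both directions remained only within the IRFs and within the other effectors, the group that holds Bst2. The Ifitm genes joined these for NP-D@MP against PBS alone. Irf7, the antiviral surface protein Bst2, Ifi27l2a, Ifitm1, Ifitm2 and Ifitm3 stood far higher than without D under the deposited scaling, and Ifitm6 less so. Ifitm6 turned under read totals. Quantile normalization turned Ifitm1 and ended the calls of Ifitm2 and Ifitm3. Ifitm1 also turned in NP-D@M against NP@M under read totals without NP@M replicate 2 and PBS replicate 3. The other 7 IRFs, most STATs, the RNA sensors, the ISG15 pair and the immunity-related GTPases stood lower with D. Genes were called by limma on log2(FPKM + 1) at a Benjamini-Hochberg adjusted p under 0.05 over 8615 tested genes, those with at least 1 FPKM in at least 3 libraries, and 44 of the 52 members were tested. Irf4, Irgm1, Irgm2, Isg20l2, Ifih1, Oasl1 and Gbp3 had under 1 FPKM in every library with D. Isg20, Oas1c and Oas1g had under 1 FPKM in every library without D. These members met the filter only through the groups where they were higher, so their calls and p-values are descriptions. Irf1, Irf2, Irf8, Irf9, Stat5a, Gbp7 and Ifi47 also needed libraries without D to pass, and Ifi44 needed libraries with D. Their calls and p-values are therefore descriptions as well, and the counts of called members include all of these genes. In NP-D@M against NP@M, 17 of 44 members were called higher (38.64%), against 45.2% of all tested genes, and 25 were called lower (56.82%), against 46.0% of all tested genes. In NP-D@MP against PBS, which shares no library with it, 15 were called higher (34.09%), against 45.7% of all, and 25 lower (56.82%), against 45.8% of all. The share of members called higher or lower was thus not far from that of the table as a whole, in which nearly every gene was called. The median log2 fold change of the members was -1.02 in NP-D@M against NP@M, where the median of all tested genes was 0.16, and -1.0 in NP-D@MP against PBS, where it was 0.13. In bulk RNA, fewer cells of a type and less RNA per cell cannot be told apart.

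Under read totals the median of all tested genes moved to -1.47 and -1.48 in these comparisons, and the members' medians to -2.34 and -2.46. Then 3 members (6.818%) were called higher in NP-D@M than in NP@M, against 9.12% of all tested genes, and 30 lower (68.18%), against 61.7%. For NP-D@MP against PBS, 4 were called higher under read totals (9.091%), against 9.01% of all, and 31 lower (70.45%), against 62.4%. Called higher in both comparisons under both scalings were 3 members, Irf7, Bst2 and Ifi27l2a, and called lower in all of these were 24. The share of all tested genes that met the same conditions was not counted, so these counts do not set the members apart from the table. Leaving out NP@M replicate 2 and PBS replicate 3 gave 17 higher and 24 lower in NP-D@M against NP@M, and 17 higher and 25 lower in NP-D@MP against PBS. With read totals and without these libraries, 6 and 32 were called in NP-D@M against NP@M, and 5 and 31 in NP-D@MP against PBS.

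**Figure D1:**
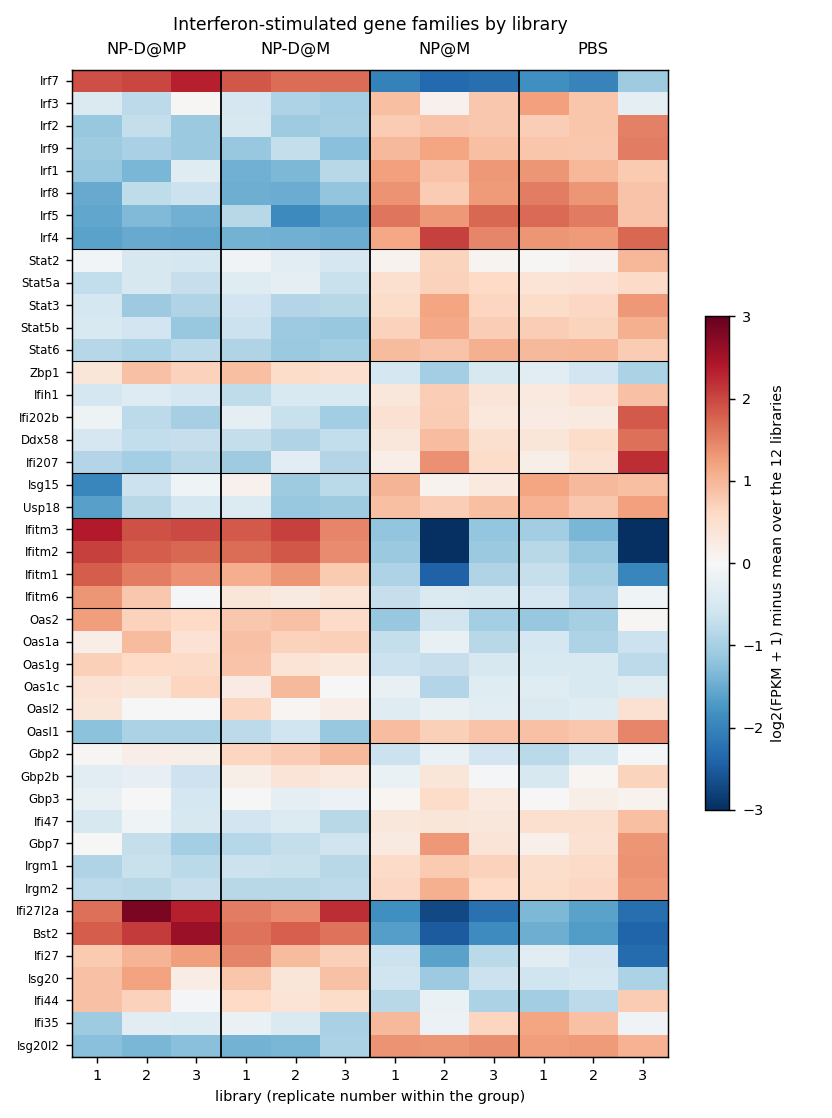
Log2(FPKM + 1) of each of the 44 tested members minus its mean over the 12 libraries, with colours limited to the range -3 to 3, libraries in columns by group and members in rows by role. Red marks a level above the gene's own mean and blue one below it: Irf7, Bst2, Ifi27l2a, Ifitm1, Ifitm2 and Ifitm3 are red in the libraries with D under the deposited scaling, and the other 7 IRFs are blue there. Ifitm6 and Irf3 are close to their own means in NP-D@MP replicate 3. Read totals turn Ifitm6 and quantile normalization turns Ifitm1.

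Among the IRFs, 7 of 8 members were lower with D and Irf7 was higher, in both comparisons and under both scalings. By comparison, 46.0% and 45.8% of all tested genes were called lower under the deposited scaling, and 61.7% and 62.4% under read totals. The median log2 fold change of the 8 was -2.20 in NP-D@M against NP@M and -2.07 in NP-D@MP against PBS. Irf7, which amplifies type I interferon production, had 252, 263 and 330.1 FPKM in NP-D@MP and 237, 211 and 211 in NP-D@M, against 15.2, 12.1 and 12.8 in NP@M and 17.5, 15.4 and 30.6 in PBS. Every library with D stood above every library without D, and PBS replicate 3 was the highest of those without D. The limma fit gave a log2 fold change of 3.94 (SE 0.24, limma adjusted p = 1.54e-07) in NP-D@M against NP@M and 3.72 (SE 0.24, limma adjusted p = 2.15e-07) in NP-D@MP against PBS, and 1.84 and 1.53 under read totals.

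The IRFs tied to inflammatory and myeloid programmes were low with D. Irf5, which drives inflammatory cytokine genes in macrophages, had 2.402, 3 and 2.67 FPKM in NP-D@MP and 4.62, 1.67 and 2.25 in NP-D@M, against 29.5, 23.6 and 32.1 in NP@M and 31.6, 28.5 and 17.1 in PBS. The groups with and without D did not overlap, and the log2 fold change was -3.0 (SE 0.29, limma adjusted p = 3.3e-06) in NP-D@M against NP@M and -2.82 in NP-D@MP against PBS. Irf8, required for the development of monocytes and dendritic cells, had 0.519, 1.57 and 1.75 FPKM in NP-D@MP and 0.557, 0.542 and 0.895 in NP-D@M, against 10.01, 6.29 and 9.54 in NP@M and 11.5, 9.81 and 6.805 in PBS. It was lower in every library with D than in any without, and log2 fold changes were -2.51 (SE 0.27, limma adjusted p = 6.47e-06) in NP-D@M against NP@M and -2.21 in NP-D@MP against PBS. Irf4, known from lymphocytes and from macrophage polarization, had 0, 0.0751 and 0.0519 FPKM in NP-D@MP and 0.142, 0.13 and 0.09196 in NP-D@M, against 5.88, 11.7 and 7.45 in NP@M and 6.62, 6.45 and 9.06 in PBS. This rests on 5 reads in the NP-D@MP libraries and 15 in the NP-D@M libraries, against 4416 in the NP@M libraries and 3727 in the PBS libraries. With so few reads the log2 fold change was -3.01 (SE 0.21, limma adjusted p = 3.65e-07) in NP-D@M against NP@M and -2.99 in NP-D@MP against PBS. Irf4 met the filter only through the libraries without D, so this p-value is a description.

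Irf1, an activator induced by interferon gamma, had 0.374, 0.185 and 1.38 FPKM in NP-D@MP and 0.116, 0.192 and 0.709 in NP-D@M, against 6.15, 4.51 and 6.503 in NP@M and 6.61, 5.05 and 4.22 in PBS. Its log2 level fell by 2.34 (SE 0.28, limma adjusted p = 1.39e-05) in NP-D@M against NP@M and by 1.99 in NP-D@MP against PBS, and no library with D reached one without. Irf9, a DNA-binding partner of STAT2, had 0.786, 0.934 and 0.732 FPKM in NP-D@MP and 0.709, 1.302 and 0.586 in NP-D@M, against 6.44, 7.52 and 6.098 in NP@M and 5.75, 5.59 and 10.01 in PBS. On the log2 scale the difference was -2.06 (SE 0.22, limma adjusted p = 6.21e-06) in NP-D@M against NP@M and -2.12 in NP-D@MP against PBS, again without overlap. Irf2, which competes with Irf1 for DNA, and Irf3, which starts interferon transcription after nucleic acid sensing, had log2 fold changes of -1.65 and -1.43 in NP-D@M against NP@M, both called. Against PBS, NP-D@MP had log2 fold changes of -2.01 and -1.0, both called, although for Irf3 the NP-D@MP and PBS libraries overlapped. With equal medians the Irf3 call against PBS was lost (-0.62, limma adjusted p = 0.131).

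**Figure D2:**
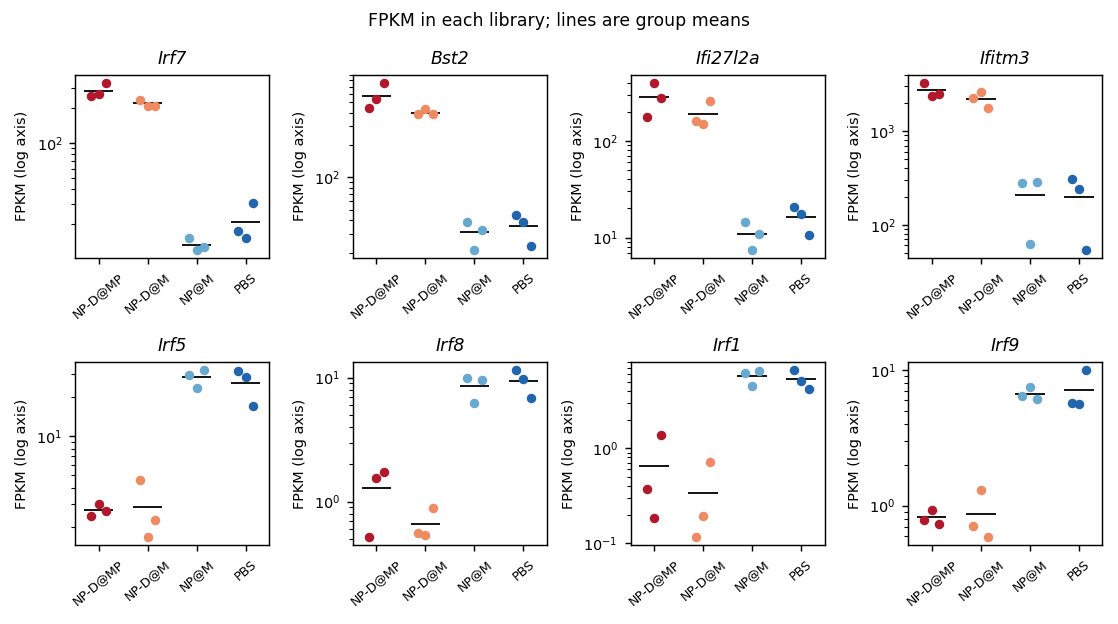
FPKM in each library, on a log axis, for 4 members with higher and 4 with lower levels with D, where points are libraries, black lines are group means of 3 libraries and groups run from NP-D@MP on the left to PBS on the right. In every panel the 6 libraries with D and the 6 without D form separate ranges, and the low points of Ifitm3 are NP@M replicate 2 at 62.1 FPKM and PBS replicate 3 at 54.0 FPKM.

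The ratio of Irf7 to other IRFs within a library does not depend on any scaling. Irf7 was 240 to 1422 times Irf1 in the NP-D@MP libraries and 297 to 2035 times in the NP-D@M libraries, against 1.97 to 2.69 times in the NP@M libraries and 2.65 to 7.25 times in the PBS libraries. Irf1 had 6 to 43 reads in each NP-D@MP library and 4 to 25 in each NP-D@M library, so the highest of these ratios, 2035 and 1422, rest on 4 and 6 Irf1 reads. Relative to Irf5 it was 87.8 to 124 times as high in NP-D@MP and 51.3 to 126 times in NP-D@M, against 0.399 to 0.514 in NP@M and 0.542 to 1.79 in PBS. A change in relative level within the IRF family is thus seen whichever scaling is used. These ratios show unequal change and do not say which gene moved.

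Most STATs, the transcription factors that carry cytokine signals to the nucleus, were lower with D. Of 5 tested, 4 were called lower and none higher in NP-D@M against NP@M, and all 5 lower in NP-D@MP against PBS. The shares of all tested genes called lower were 46.0% and 45.8%. Under read totals all 5 were called lower in both, where 61.7% and 62.4% of all tested genes were. Stat2, which acts in type I interferon signalling, had 3.94, 2.73 and 2.62 FPKM in NP-D@MP and 3.88, 3.19 and 2.68 in NP-D@M, against 4.64, 7.36 and 4.57 in NP@M and 4.4, 4.73 and 9.38 in PBS. The log2 fold change was -0.6 (adjusted p = 0.0526 by limma) in NP-D@M against NP@M, which missed the threshold, and -0.76 (adjusted p = 0.0202) in NP-D@MP against PBS. The comparison with PBS missed the threshold without PBS replicate 3 (log2 fold change -0.46, adjusted p = 0.076) and without NP-D@MP replicate 2 (-0.70, 0.0596) or replicate 3 (-0.67, 0.0643), as well as with equal medians (-0.37, 0.225) and quantile normalization (-0.70, 0.137). The NP-D@M comparison passed without PBS replicate 1 (adjusted p = 0.0486) or PBS replicate 3 (adjusted p = 0.0152), with the fold change itself not altered, and with voom (-1.14, 0.00987). Stat3, which carries interleukin 6 and interleukin 10 signals, had 5.11, 3.16 and 3.72 FPKM in NP-D@MP and 4.91, 3.79 and 3.98 in NP-D@M, against 11.9, 18.9 and 12.8 in NP@M and 12, 12.5 and 20.6 in PBS. No library with D reached those without, and the log2 fold change was -1.55 (SE 0.25, limma adjusted p = 0.000143) and -1.66. Stat6, which mediates interleukin 4 responses, and Stat5b, used by many cytokines of blood cell growth, had log2 fold changes of -1.98 and -1.82 in NP-D@M against NP@M.

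All 4 sensors and HIN-200 proteins other than Zbp1 were lower with D. Across the table, 46.0% of tested genes were called lower in NP-D@M against NP@M and 45.8% in NP-D@MP against PBS. Ddx58, the RNA sensor RIG-I, had 1.64, 1.24 and 1.32 FPKM in NP-D@MP and 1.28, 0.995 and 1.26 in NP-D@M, against 3.79, 6.11 and 4.24 in NP@M and 3.83, 4.53 and 10.8 in PBS. This was a log2 fold change of -1.37 (SE 0.3, limma adjusted p = 0.00112) in NP-D@M against NP@M and -1.51 in NP-D@MP against PBS, without overlap of the groups, and the first lost its call with quantile normalization (adjusted p = 0.0806). Ifih1, the long RNA sensor MDA5, had 0.238, 0.376 and 0.265 FPKM in NP-D@MP and 0.0567, 0.312 and 0.304 in NP-D@M, against 1.26, 1.96 and 1.34 in NP@M and 1.196, 1.41 and 2.31 in PBS. It changed by -1.04 (SE 0.18, limma adjusted p = 0.000209) and -1.01 on the log2 scale in those comparisons, with quantile normalization leaving adjusted p-values of 0.141 and 0.22. Zbp1, a sensor of Z-form nucleic acid that can start necroptosis, had 10.1, 15.02 and 13.1 FPKM in NP-D@MP and 15.1, 11.6 and 11.2 in NP-D@M, against 5.03, 3.28 and 5.17 in NP@M and 5.93, 4.79 and 3.45 in PBS. On the log2 scale the difference was 1.32 (SE 0.23, limma adjusted p = 0.000244) in NP-D@M against NP@M and 1.27 in NP-D@MP against PBS, and turned to -0.59 and -0.7 under read totals. Ifi202b and Ifi207, HIN-200 proteins of a mouse cluster, were lower in both comparisons, and in PBS replicate 3 Ifi207 reached 20.5 FPKM, against 4.24 and 5.41 in the other PBS libraries. With equal medians their calls in NP-D@M against NP@M were lost (limma adjusted p = 0.102 and 0.0555). Members of this cluster, and of the Oas1, Ifitm and Gbp clusters, have close paralogs, and how reads common to them were counted is not stated in the sources used here.

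The ISG15 system was lower with D. Isg15, a ubiquitin-like modifier, had 0, 1.46 and 2.52 FPKM in NP-D@MP and 3.21, 0.843 and 1.19 in NP-D@M, against 6.85, 3.16 and 3.73 in NP@M and 7.77, 6.63 and 6.28 in PBS. NP-D@M and NP@M overlapped, and the log2 fold change of -1.06 (SE 0.45, limma adjusted p = 0.0407) lost its call without any of NP-D@MP replicate 2, NP-D@M replicates 2 or 3, NP@M replicates 1 or 3 or PBS replicate 2, with adjusted p-values of 0.0506 to 0.144. It was also lost with equal medians, quantile normalization, voom or a pseudocount of 0.1 (adjusted p-values of 0.0607 to 0.226). In NP-D@MP against PBS the groups did not overlap, at -1.94 (SE 0.45, limma adjusted p = 0.00173). Usp18, which removes ISG15 from proteins and dampens the type I receptor, had 1.07, 2.595 and 3.42 FPKM in NP-D@MP and 3.77, 1.87 and 2.02 in NP-D@M, against 10.8, 9.63 and 10.8 in NP@M and 11.99, 10.1 and 13.9 in PBS. Every library with D was below every library without, and its log2 fold change was -1.72 (SE 0.28, limma adjusted p = 0.000166) in NP-D@M against NP@M and -2.01 in NP-D@MP against PBS. Isg15 and Usp18 came to 24 and 160 reads in the NP-D@MP libraries, 34 and 182 in the NP-D@M libraries, 373 and 3148 in the NP@M libraries and 543 and 3454 in the PBS libraries.

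Ifitm1, Ifitm2 and Ifitm3, membrane proteins that hinder virus entry, were the most abundant members. Ifitm3 had 3279, 2372 and 2507 FPKM in NP-D@MP and 2259, 2620.0 and 1750.0 in NP-D@M, against 276, 62.1 and 283 in NP@M and 305, 242 and 54.01 in PBS. Ifitm2 had 823, 698 and 655 FPKM in NP-D@MP and 632, 726 and 534 in NP-D@M, against 91.2, 18.9 and 91.4 in NP@M and 109.9, 90.1 and 22.9 in PBS. The libraries that stood apart, NP@M replicate 2 and PBS replicate 3, were the lowest of their groups for both genes. The log2 fold change of Ifitm3 was 3.68 (SE 0.67, limma adjusted p = 0.000347) in NP-D@M against NP@M and 4.07 in NP-D@MP against PBS, and that of Ifitm2 was 3.5 (SE 0.63, limma adjusted p = 0.000344) and 3.54. Without the libraries apart these were 2.96 and 3.31 for Ifitm3 and 2.76 and 2.85 for Ifitm2, all called. Quantile normalization ended all of these calls, with Ifitm3 at 0.93 (limma adjusted p = 0.201) and 1.19 (adjusted p = 0.11) and Ifitm2 at 1.17 (adjusted p = 0.162) and 1.05 (adjusted p = 0.206).

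Under read totals Ifitm3 had log2 fold changes of 1.52 (adjusted p = 0.0744 by limma) and 1.84 (adjusted p = 0.0346), and Ifitm2 of 1.36 (adjusted p = 0.0936) and 1.32 (adjusted p = 0.102). With read totals and without the libraries apart, both genes were called higher, Ifitm3 at 0.79 and 1.04 and Ifitm2 at 0.6 and 0.59. Ifitm1 had 1516, 1250.0 and 1119 FPKM in NP-D@MP and 915, 1087 and 743 in NP-D@M, against 228, 78.99 and 232 in NP@M and 267, 216 and 112 in PBS. The limma fit gave a log2 fold change of 2.48 in NP-D@M against NP@M and 2.78 in NP-D@MP against PBS, both called, but 0.32 and 0.55 under read totals, neither called, and -0.22 and -0.026 with quantile normalization. Ifitm6 was called higher under the deposited scaling and lower under read totals, at 0.88 and -1.21 in NP-D@M against NP@M. As mean shares of recovered reads the 5 Ifitm genes took 0.185% in NP-D@MP and 0.153% in NP-D@M, against 0.0936% in NP@M and 0.0976% in PBS. Both means without D were lowered by the libraries apart, NP@M replicate 2 at 0.03728% and PBS replicate 3 at 0.04341%. Their group mates took 0.1116% to 0.1379%, which overlapped the 0.1258% to 0.2265% of the libraries with D. The IRFs took 0.0532% in NP-D@MP and 0.0447% in NP-D@M, against 0.0788% in NP@M and 0.0845% in PBS, and the 6 STATs took 0.00559% in NP-D@MP and 0.00585% in NP-D@M, against 0.0924% in NP@M and 0.0905% in PBS.

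The Oas genes, whose enzymes make oligoadenylates that activate RNase L, divided into members higher with D under the deposited scaling and Oasl1, which was lower. Under the deposited scaling 5 of 6 were called higher and 1 lower in NP-D@M against NP@M, and 4 higher and 1 lower in NP-D@MP against PBS, while under read totals none was called higher and 2 were called lower in each. The shares of all tested genes called higher were 45.2% and 45.7%, and those called lower 46.0% and 45.8%. With read totals these were 9.12% and 9.01% higher and 61.7% and 62.4% lower. Oas1a had 2.79, 5.404 and 3.51 FPKM in NP-D@MP and 5.09, 4.397 and 4.49 in NP-D@M, against 1.02, 1.84 and 0.8599 in NP@M and 1.29, 0.751 and 1.12 in PBS. This was a log2 fold change of 1.36 (SE 0.22, limma adjusted p = 0.000172) and 1.23, and -0.14 and -0.25 under read totals. Oasl1, known in mouse to repress translation of Irf7 mRNA, had 0.263, 0.518 and 0.536 FPKM in NP-D@MP and 0.7098, 0.929 and 0.346 in NP-D@M, against 4.6, 3.83 and 4.29 in NP@M and 4.45, 4.12 and 7.08 in PBS. It was lower in every library with D, with log2 fold changes of -1.67 (SE 0.2, limma adjusted p = 1.7e-05) and -2.09, and -3.02 and -3.38 under read totals. Oas1a was 6.54 to 10.6 times Oasl1 in NP-D@MP and 4.73 to 13.0 times in NP-D@M, against 0.201 to 0.481 in NP@M and 0.159 to 0.291 in PBS, a ratio that no scaling alters, with 6 to 11 Oasl1 reads in each NP-D@MP library and 8 to 19 in each NP-D@M library.

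Oasl2, an active synthetase in mouse, had 4.24, 3.02 and 3.05 FPKM in NP-D@MP and 5.3, 3.22 and 3.64 in NP-D@M, against 2.17, 2.48 and 2.21 in NP@M and 1.99, 2.12 and 4.54 in PBS. Its log2 fold change of 0.6 (limma adjusted p = 0.0375) in NP-D@M against NP@M lost its call when NP-D@M replicate 1 or 3 or any NP@M library was left out, with adjusted p-values of 0.0532 to 0.141, and with voom (0.248). Against PBS, NP-D@MP had a value of 0.24 (adjusted p = 0.359) and, without PBS replicate 3, 0.53 (adjusted p = 0.0272). Under read totals it was -1.04 and -1.43, the opposite direction. Oas2, Oas1c and Oas1g were called higher under the deposited scaling in both comparisons, at 1.66, 0.88 and 1.13 in NP-D@M against NP@M, and were not called under read totals, at -0.04, -0.2 and 0.44.

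Of the interferon-inducible GTPases, which act on the vacuoles of intracellular microbes, 5 of 7 tested were called lower and 1 higher in NP-D@M against NP@M, and 4 lower and 1 higher in NP-D@MP against PBS. The shares of all tested genes were 46.0% and 45.8% lower and 45.2% and 45.7% higher. Under read totals all 7 were lower in both, where 61.7% and 62.4% of all tested genes were called lower. Irgm1, a regulator of the immunity-related GTPases and of autophagy, had 0, 0.169 and 0.0656 FPKM in NP-D@MP and 0.199, 0.176 and 0.0388 in NP-D@M, against 1.78, 2.23 and 1.98 in NP@M and 1.696, 1.76 and 3.73 in PBS. By limma it changed by -1.4 (log2; SE 0.2, adjusted p = 5.8e-05) in NP-D@M against NP@M and -1.61 in NP-D@MP against PBS. Its close relative Irgm2, whose promoter held the ISRE and GAS cores printed above, came to 4 reads in the NP-D@MP libraries and 1 read in the NP-D@M libraries, against 823 in the NP@M libraries and 846 in the PBS libraries. Irgm2 averaged only 2.07 FPKM in NP@M and 2.25 in PBS, so its log2 fold changes of -1.59 and -1.6 are held down by the pseudocount. Gbp7 and Ifi47 were also lower, at -1.37 and -0.95 in NP-D@M against NP@M.

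Gbp2, a guanylate-binding protein recruited to bacteria and parasites, had 6.27, 7.12 and 7.07 FPKM in NP-D@MP and 10.2, 11.1 and 13.1 in NP-D@M, against 3.56, 5.17 and 3.75 in NP@M and 3.08, 3.95 and 5.996 in PBS. NP-D@M stood highest and the NP@M and PBS libraries overlapped. On the log2 scale the difference was 1.27 (SE 0.21, limma adjusted p = 0.000176) in NP-D@M against NP@M and 0.58 (SE 0.21, limma adjusted p = 0.0213) in NP-D@MP against PBS, and turned to -0.62 and -1.3 under read totals. The call in NP-D@MP against PBS was lost without NP-D@MP replicate 2 or 3 or PBS replicate 1 or 2, with adjusted p-values of 0.0545 to 0.0959, and with quantile normalization (0.078) or voom (0.387). Gbp3 was called lower in NP-D@M against NP@M only, at -0.46 and -0.35, and the difference between these was not tested. The Gbp3 call was lost with equal medians (-0.055, limma adjusted p = 0.763). It was also lost without NP@M replicate 2 and PBS replicate 3 (-0.33, adjusted p = 0.0654).

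Bst2 and Ifi27l2a led the remaining effectors. Bst2, or tetherin, which holds budding virus particles at the cell surface, had 441, 532 and 757 FPKM in NP-D@MP and 386, 432 and 387 in NP-D@M, against 38.7, 21.3 and 32.7 in NP@M and 44.4, 38.4 and 22.8 in PBS. The 6 libraries with D did not overlap those without, and NP-D@MP replicate 3 was the highest. The log2 fold change was 3.7 (SE 0.3, limma adjusted p = 9.55e-07) in NP-D@M against NP@M and 4.01 (SE 0.3, limma adjusted p = 5.57e-07) in NP-D@MP against PBS, and 1.56 and 1.8 under read totals. Against Usp18 within the same library, Bst2 was 205 to 414 times as high in NP-D@MP and 102 to 231 times in NP-D@M, against 2.21 to 3.57 times in NP@M and 1.64 to 3.80 times in PBS.

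Ifi27l2a, a small interferon-induced membrane protein, had 175, 397 and 279 FPKM in NP-D@MP and 161, 148 and 259.8 in NP-D@M, against 14.5, 7.49 and 10.8 in NP@M and 20.9, 17.4 and 10.7 in PBS. All libraries with D were above all without, with a log2 fold change of 4.0 (SE 0.36, limma adjusted p = 2.05e-06) in NP-D@M against NP@M and 4.01 in NP-D@MP against PBS, and 1.91 and 1.83 under read totals. Isg20, an exonuclease that degrades RNA, had 3.87, 5.15 and 2.12 FPKM in NP-D@MP and 3.73, 2.399 and 3.88 in NP-D@M, against 0.745, 0.244 and 0.7 in NP@M and 0.766, 0.846 and 0.374 in PBS. It was called higher at 1.47 (SE 0.26, limma adjusted p = 0.000294) and 1.46, and under read totals was 0.27 and 0.15, neither called, turning to -0.075 in NP-D@MP against PBS with the libraries apart also left out. Isg20l2, known in human cells for ribosomal RNA processing rather than antiviral defence, had 0.119, 0.0424 and 0.132 FPKM in NP-D@MP and 0, 0.0441 and 0.3896 in NP-D@M, against 5.79, 5.72 and 6.06 in NP@M and 5.396, 5.47 and 4.54 in PBS. Its log2 fold changes of -2.6 (SE 0.15, limma adjusted p = 1.3e-07) and -2.48 rest on 7 reads in the NP-D@MP libraries and 11 in the NP-D@M libraries, against 1834 in NP@M and 1555 in PBS.

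Ifi35 had 1.32, 2.84 and 2.797 FPKM in NP-D@MP and 3.21, 2.58 and 1.501 in NP-D@M, against 8.55, 3.31 and 6.58 in NP@M and 9.98, 7.96 and 3.53 in PBS. The limma fit gave a log2 fold change of -1.01 (limma adjusted p = 0.0268) in NP-D@M against NP@M and -1.24 (adjusted p = 0.0103) in NP-D@MP against PBS, and the first lost its call when any of NP-D@M replicate 3 and NP@M replicates 1 and 3 was left out, with adjusted p-values of 0.0712 to 0.103. Quantile normalization ended both calls (adjusted p = 0.14 and 0.056), and equal medians the first (0.141). Ifi27 was called higher in both comparisons under the deposited scaling, at 2.07 and 2.1, and in neither under read totals, at -0.06 and -0.1. Without the libraries apart it was 1.47 in NP-D@MP against PBS under the deposited scaling, and with read totals as well it was called lower, at -0.77 (limma adjusted p = 0.0133). Ifi44 was called higher in NP-D@M against NP@M, at 1.18, and turned to -0.17 there and -0.57 in NP-D@MP against PBS under read totals, not called. For Ifi44, PBS replicate 3, at 4.16 FPKM against 0.474 and 0.749 in its mates, overlapped NP-D@MP.

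**Figure D3:**
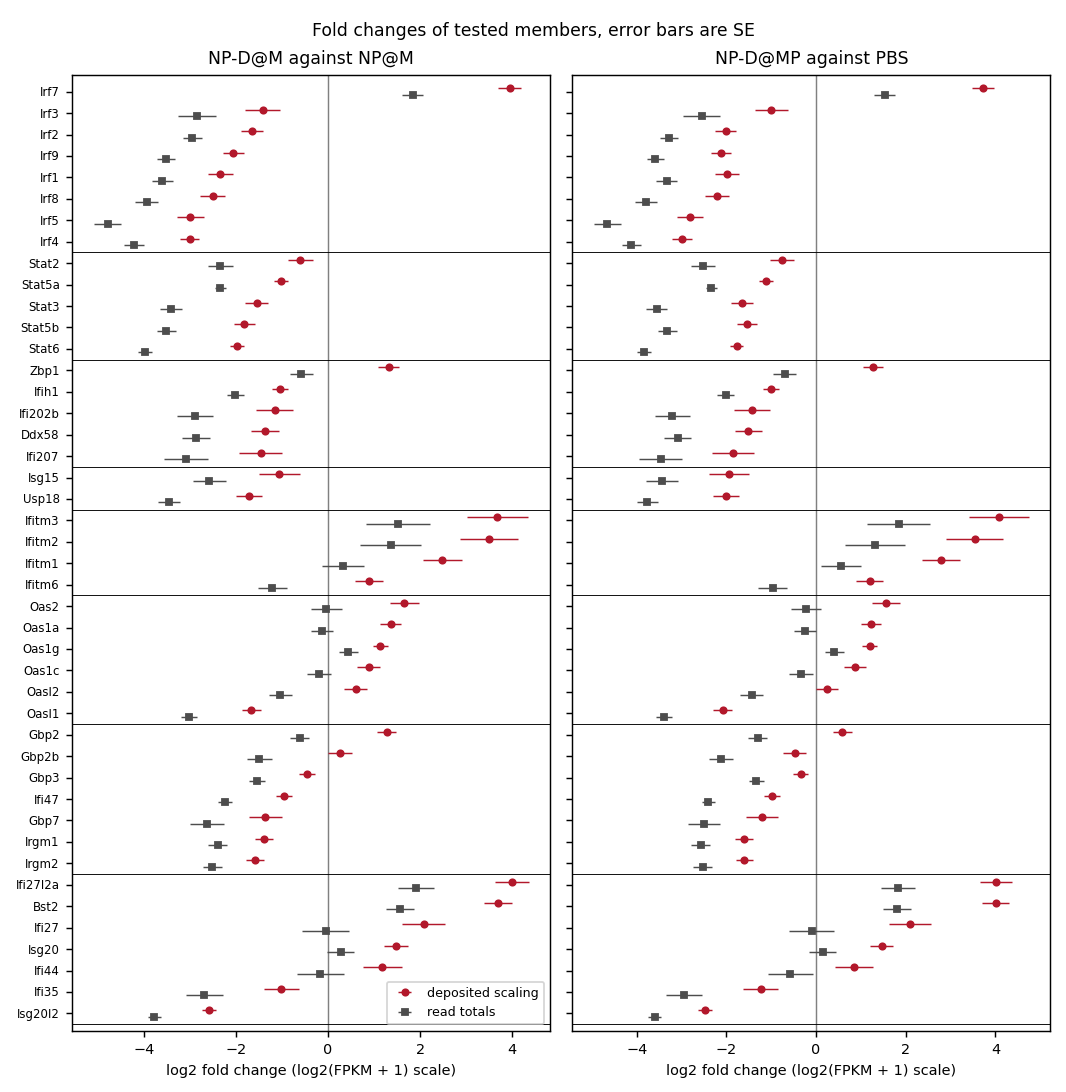
Log2 fold changes of the 44 tested members in NP-D@M against NP@M (left) and NP-D@MP against PBS (right), with bars for the standard error, red circles for the deposited scaling and grey squares for read totals, in rows by role. Read totals move every member to the left: Irf7, Bst2 and Ifi27l2a stay between 1.53 and 1.91, whereas Oas1a, Oas1c, Oas1g and Oas2 come to lie between -0.34 and 0.44.

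The 8 members below the filter had few reads with D, from 0 for Ifit1bl2 and Stat4 in NP-D@MP to 84 for Gbp8 in NP-D@M. Ifit1 and Ifit2, proteins that bind viral RNA ends and translation factors, came to 10 and 14 reads in the 3 NP-D@MP libraries and 8 and 10 reads in the 3 NP-D@M libraries, against 189 and 207 reads in NP@M and 406 and 488 reads in PBS. Most PBS reads came from replicate 3, where Ifit1 had 3.60 FPKM, against 0.263 and 0.790 FPKM in its mates, and Ifit2 3.32 FPKM, against 0.267 FPKM in each mate. Cmpk2, a mitochondrial nucleotide kinase, had 3 reads in NP-D@MP and 2 in NP-D@M, against 282 in NP@M and 504 in PBS. Stat4, which carries interleukin 12 signals, had no read in NP-D@MP, which allows up to 3, and 1 read in NP-D@M, against 66 in NP@M and 99 in PBS. The highest value of Ifit1bl2, Ifitm10, Gbp5 and Gbp8 in any library was 0.554, 0.557, 0.553 and 1.26 FPKM. The filter acts on deposited FPKM and not on reads, and the counts over tested members leave these 8 out. Under the deposited scaling a gene reached 1 FPKM on fewer reads with D than without. Oas1g was tested with 97 reads in NP-D@MP, 91 in NP-D@M, 36 in NP@M and 44 in PBS, fewer in all than Cmpk2 or Ifit2.

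NP-D@M against NP@M and NP-D@MP against PBS gave nearly the same picture from different libraries. Across the 44 tested members their log2 fold changes had a correlation of 0.99, a description over genes that are not independent and that share the scaling of libraries with and without D. The sign was the same for 43 members, Gbp2b being the exception. The comparisons had 15 higher calls in common, out of 17 and 15, and 24 lower calls, out of 25 and 25, with 0 called in opposite directions. Calls in common over all tested genes were not counted, and no correlation was taken over them. Members called higher in NP-D@M against NP@M had a median gene length of 1885 bases and those called lower 3976 bases, and over all tested genes the called medians were 2650 and 5012 bases. The part of length in these calls was not tested.

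**Figure D4:**
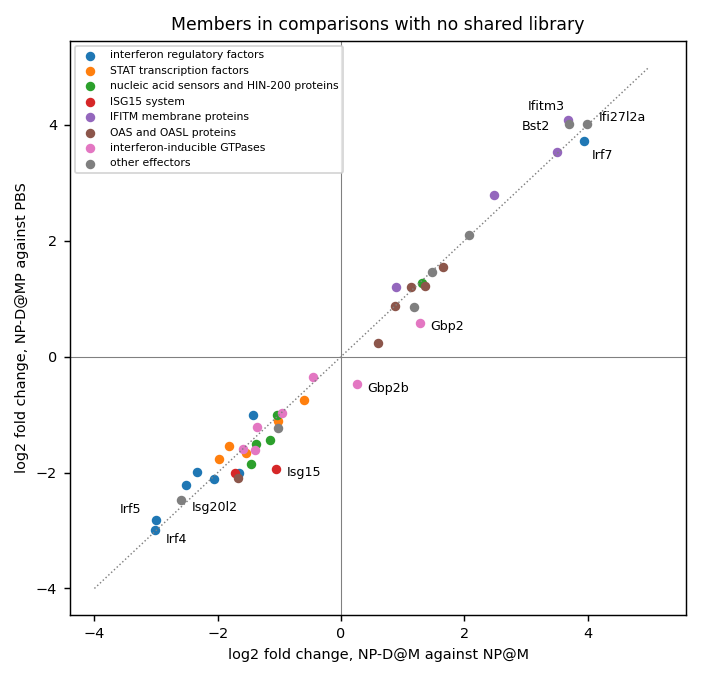
Log2 fold change of each tested member in NP-D@M against NP@M (x axis) and in NP-D@MP against PBS (y axis), under the deposited scaling, coloured by role, with a dotted line where both are equal. Points lie close to the line, with a correlation of 0.99 over 44 members, and Isg15, Gbp2 and Gbp2b lie below it.

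The addition of P to the particle's name changed no member past the threshold. In NP-D@MP against NP-D@M, 0 of 44 members were called in either direction by limma, against 0.0% of all tested genes, and 2 members and 428 of all tested genes had an unadjusted p under 0.05. With read totals the unadjusted count was 2 members and 280 genes, and voom on the recovered reads also called 0 members. Log2 fold changes ran from -0.67 to 0.55, and their 95% confidence intervals lay within -1.31 to 1.77, so changes of that size in single members are not excluded. The groups did not overlap for 6 members, named here after their values were seen: Ifitm1, Irf7 and Bst2 with NP-D@MP above NP-D@M (log2 fold changes 0.51, 0.35 and 0.49), and Irf4, Gbp2 and Gbp2b with NP-D@MP below (-0.11, -0.66 and -0.67). For Gbp2 the interval was -1.13 to -0.20 and the limma adjusted p = 0.703. The share of all tested genes without overlap was not counted, so these 6 are descriptions and are not read as changes with P.

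The particle without D also changed no member past the threshold. In NP@M against PBS, 0 of 44 members were called by limma, against 0.0116% of all tested genes called higher and 0.0% lower, and 1 member and 27 of all tested genes had an unadjusted p under 0.05. Under read totals these were 1 member and 74 genes, and voom called 0 members. Log2 fold changes ran from -0.57 to 0.21, with 95% confidence intervals within -1.57 to 1.56. Irf7 had the lowest of these, -0.57 with an interval of -1.10 to -0.04 and an adjusted p = 1, and it was -0.22 without NP@M replicate 2 and PBS replicate 3. Ifi47 (-0.27) and Isg20l2 (0.16) were the other members whose NP@M and PBS libraries did not overlap, and all were named after their values were seen. Here too the share of all tested genes without overlap was not counted, so they are not read as changes.

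Other genes of the pathway also went both ways, and their counts stand against 45.2% of all tested genes called higher and 46.0% called lower in NP-D@M against NP@M, and 45.7% and 45.8% in NP-D@MP against PBS. Of the 10 listed interferon ligand genes 0 had a row, so their levels are not known here. Of 9 receptor and kinase genes 7 had a row and 6 were tested, with 2 called higher and 3 lower in NP-D@M against NP@M and 2 higher and 4 lower in NP-D@MP against PBS. Ifnar2, a chain of the type I interferon receptor, averaged 87.5 ± 5.53 FPKM in NP-D@MP and 84.7 ± 7.40 in NP-D@M, against 17.6 ± 3.52 in NP@M and 17.7 ± 2.40 in PBS (SD, n = 3 each), a log2 fold change of 2.22 in NP-D@M against NP@M that was 0.11 under read totals. Ifngr1, the ligand-binding chain of the interferon gamma receptor, averaged 2.15 ± 0.338 FPKM in NP-D@MP and 2.21 ± 0.831 in NP-D@M, against 32.7 ± 3.30 in NP@M and 44.8 ± 26.2 in PBS. This was a log2 fold change of -3.43 (limma adjusted p = 3.21e-06) in NP-D@M against NP@M and -5.18 under read totals. Il10rb, a chain shared by the interleukin 10 and type III interferon receptors, had a log2 fold change of 1.42 there and turned to -0.62 under read totals.

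Of 19 nucleic acid sensing gene names 13 had a row, and of 10 tested genes 1 was higher and 8 lower in NP-D@M against NP@M, and 1 and 9 in NP-D@MP against PBS. The higher one was Unc93b1, which carries Toll-like receptors to endosomes, at 778 ± 79.6 FPKM in NP-D@MP and 646 ± 64.4 in NP-D@M, against 90.1 ± 20.6 in NP@M and 88.4 ± 22.1 in PBS (SD, n = 3 each). On the log2 scale the difference was 2.85 in NP-D@M against NP@M and 0.70 under read totals, called by both. The adaptors Myd88 and Ticam1 were lower, at -2.15 and -2.03 in NP-D@M against NP@M. All 7 tested negative regulators were called lower in both comparisons and under both scalings, where read totals gave 61.7% and 62.4% of all tested genes called lower. Among them were the phosphatases Ptpn6 and Ptpn2 at -3.47 and -1.60 and the cytokine signalling suppressor Cish at -3.53, in NP-D@M against NP@M. Of 29 tested genes of a wider list of interferon-response genes, 8 were higher and 20 lower in NP-D@M against NP@M, and 8 and 21 in NP-D@MP against PBS. Under read totals these were 4 higher and 21 lower in NP-D@M against NP@M, where 9.12% of all tested genes were called higher and 61.7% lower. Slfn2 and Slfn1, schlafens known for restraining T cell growth, were at -3.71 and -2.99, and the secreted glycoprotein Lgals3bp at 3.5 (1.34 under read totals).

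**Figure D5:**
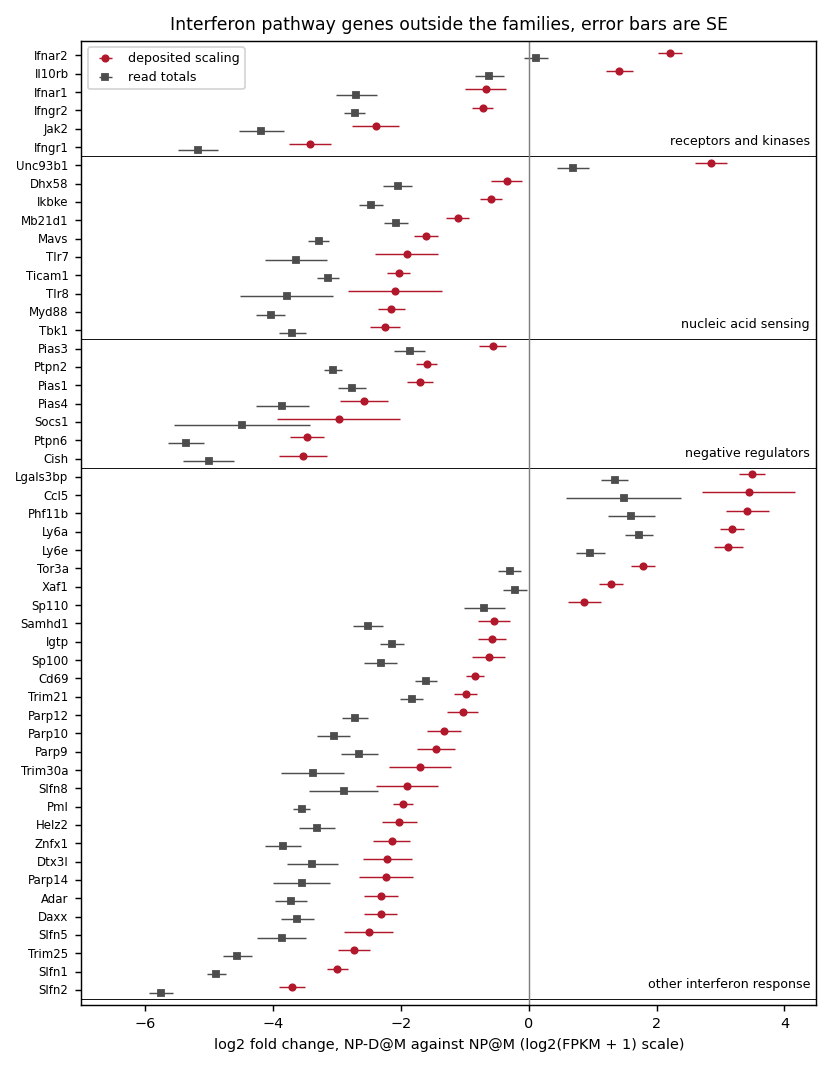
Log2 fold change in NP-D@M against NP@M of tested pathway genes outside the families, in rows by list, with bars for the standard error, under the deposited scaling and read totals. The 7 negative regulators all lie below 0, and Ifnar2 moves from 2.22 under the deposited scaling to 0.11 under read totals.

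Summed levels of myeloid markers were higher with D under the deposited scaling, while their single genes went both ways. Sums were taken under the deposited scaling only, and their direction under read totals is not given. Marker counts in NP-D@M against NP@M stand against 45.2% of all tested genes called higher and 46.0% called lower. With read totals these shares were 9.12% and 61.7%. The summed level of the 11 monocyte and macrophage markers was 35110 to 37380 FPKM in NP-D@MP and 29530 to 40070 in NP-D@M, against 2497 to 2985 in NP@M and 2397 to 3833 in PBS, and of 10 tested 9 were called higher and 1 lower in NP-D@M against NP@M (5 and 2 under read totals). Most of that sum was Lyz2, at a mean of 29460 FPKM in NP-D@MP and 27280 in NP-D@M, against 2158 in NP@M and 2335 in PBS. The 10 neutrophil markers with a row summed to 4861 to 7330 FPKM in NP-D@MP and 4391 to 6828 in NP-D@M, against 1260 to 1780 in NP@M and 1598 to 2179 in PBS. Most of that sum with D was Mmp8, at a mean of 3946 FPKM in NP-D@MP and 4507 in NP-D@M, against 635 in NP@M and 724 in PBS. Of the 10 neutrophil markers 2 were called higher and 3 lower in NP-D@M against NP@M, the 3 being Elane, Mpo and Cxcr2, and under read totals 0 were called higher and 9 lower. The 5 platelet and megakaryocyte markers with a row, Pf4 foremost, summed to 25740 to 28670 FPKM in NP-D@MP and 20400 to 26100 in NP-D@M, against 484 to 1198 in NP@M and 520 to 1211 in PBS. Of the conventional dendritic cell markers 7 of 8 had a row, with a sum of 485 to 604 FPKM in NP-D@MP and 552 to 715 in NP-D@M, against 88.0 to 112 in NP@M and 79.8 to 98.9 in PBS, nearly all of it Itgax. Of 5 tested, 2 were called higher and 2 lower in NP-D@M against NP@M (1 and 2 under read totals). The lower ones were Ccr7 and Batf3, at log2 fold changes of -2.94 and -0.90. Flt3 was barely detected in any group, at means of 0 FPKM in NP-D@MP, 0.0183 in NP-D@M, 0.0795 in NP@M and 0.1185 in PBS. Of 7 plasmacytoid dendritic cell markers 3 had a row, one of them Bst2 itself, and their sum was 507 to 845 FPKM in NP-D@MP and 434 to 492 in NP-D@M, against 23.6 to 46.7 in NP@M and 24.4 to 53.0 in PBS. The T and NK cell markers with a row (2 of 8) summed to at most 3.76 FPKM and the B cell markers with a row (2 of 6) to at most 6.84 FPKM in any library, and 0 of 7 erythroid markers had a row. The part of cell make-up, or of the authors' scaling, in the members' changes was not tested.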

How the data were processed

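Gene expression was measured by RNA sequencing in 12 mouse libraries, 3 per group. The starting point was the authors' deposited FPKM for 11669 genes. FPKM is a unit inferred here, since the header is silent on it: multiplied by gene length, 100% of values lie within 0.05 of a whole number of steps of 1 size in each library, and these steps were taken as reads. How the authors scaled the libraries is not given in the sources used here. Per the submitters' processing notes, Bowtie 0.12.2 and mm8 were named without their role; the positions of all 52 members equal those of GENCODE on GRCm38.

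Log2(FPKM + 1) of the 8615 genes with at least 1 FPKM in at least 3 libraries entered limma 3.58.1 (R 4.3.3) as 4 group means over the 12 libraries, using its trend and robust options. Tests were 2-sided, with Benjamini-Hochberg adjustment over all genes of a comparison. The pseudocount of 1 understates fold changes of low genes. The alternatives were read totals, equal medians, quantile normalization, voom on recovered reads, a pseudocount of 0.1, no filter, a filter of 5 FPKM, the 6 libraries compared alone, both libraries apart left out and each library left out. Read totals together with both libraries apart left out was chosen after seeing the data. The fit was tested on simulated data. Reads carry no molecular identifiers, so floors of 3 reads cover counting error only.

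The members and lists were chosen with earlier results of these data known. The naming rule took a set of canonical members whatever their values, up to 5 called members per direction and comparison with the largest change (non-overlapping groups, higher mean at least 5 FPKM), the 3 most abundant members, and up to 3 genes with the smallest adjusted p per pathway list. Other members are named by count or as exceptions, chosen after their values were seen. Promoters were read from RefSeq on GRCm38.p6, with windows for 46 of 52 members. Python 3.11.15 with pandas 2.3.3, numpy 2.4.6 and matplotlib 3.10.9 was used for tables and plots. Rsad2, Mx1 and Ifit3 were not analysed here, and 1 further gene that the rule for members takes is not reported here.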

Additional observations from a re-analysis of the deposited data

How the results depend on the processing

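Calls of members in NP-D@M against NP@M (17 higher, 25 lower) came to 3 higher under read totals, 6 higher with read totals and both libraries apart left out, 11 higher and 15 lower with a filter of 5 FPKM, which tests fewer genes, and 14 lower with quantile normalization. Calls in NP-D@MP against PBS (15 higher, 25 lower) came to 4 higher under read totals, 5 higher with both libraries apart also left out, and 15 lower with a filter of 5 FPKM. Every other alternative run left these counts within 1.5 times. Leaving out 1 library gave 14 to 17 higher and 21 to 26 lower in NP-D@M against NP@M, 14 to 17 higher and 24 to 25 lower in NP-D@MP against PBS, and 0 to 0 in the other comparisons. Some named members changed direction. In NP-D@M against NP@M under read totals, Gbp2 was -0.62, Oas1a -0.14, Oasl2 -1.04 and Zbp1 -0.59 on the log2 scale. With both libraries apart also left out, Gbp2 was -0.47, Ifitm1 -0.20, Oasl2 -0.99 and Zbp1 -0.78. In NP-D@MP against PBS under read totals, Gbp2 was -1.30, Oas1a -0.25, Oasl2 -1.43 and Zbp1 -0.70, and with both libraries apart also left out Gbp2 was -1.09, Isg20 -0.075, Oas1a -0.23, Oasl2 -1.13 and Zbp1 -0.92. Quantile normalization turned Ifitm1 to -0.22 and -0.026 in NP-D@M against NP@M and NP-D@MP against PBS, and voom turned Oasl2 to -0.098 in NP-D@MP against PBS. The cause was not tested. Members with few reads with D, such as Irf4 and Irgm2, have fold changes limited by depth and pseudocount. No paired analysis was possible because the labels number the libraries N1 to N12 with no number shared between groups.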
